A study of Mus musculus with 6 samples.

Results

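The cytosolic ribosomal protein genes of the mouse were described in whole embryos at stage E10.5 of gestation. Members were the protein-coding genes whose symbol begins with *Rpl* or *Rps* and a digit, together with *Rpsa*, *Rplp0*, *Rplp1* and *Rplp2*. Pseudogenes, the S6 kinases and antisense genes were left out. The rule found 86 of the 55401 genes counted, of which 52 carried a large subunit name and 34 a small subunit name. Of the 86, 77 encode the standard protein set of the ribosome, 8 are paralogs of such a gene, and *Rps19bp1*, a gene for a protein that binds RPS19, entered by its name alone. The rule used symbols and no measured value.

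Poly(A) RNA of 2 genotypes was sequenced, with 3 libraries each, all on a C57BL/6J background. WT embryos carried the unmodified *Igf2* locus. Embryos referred to as 5C carried an array of extra copies of the microRNA gene *Mir483* at its own site within *Igf2*, a transgene that reached the germline through chimeric males. Per the study's methods, WT embryos were littermates of the mutants and each library pooled a pair of male embryos, so embryo-to-embryo spread was partly averaged and p-values measure the spread between pools.

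Ribosomes read mRNA into protein. The small subunit holds the mRNA and matches each codon to its tRNA, and the large subunit joins the amino acids and passes the chain out through its exit tunnel. Mammalian ribosomal proteins are made from mRNAs that begin with a cytosine followed by a run of pyrimidines, the terminal oligopyrimidine (TOP) tract, through which mTOR and LARP1 adjust their translation to nutrients and to growth factors such as the insulin-like growth factors. Such control acts on translation and need not show in mRNA levels, which are what was measured here. Many ribosomal protein genes carry small nucleolar RNA (snoRNA) genes in their introns, and reverse transcription of their abundant mRNAs has left a large number of processed pseudogenes in the genome.

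The start sites of several members are shown because the pyrimidine tract is the sequence feature by which these mRNAs are known. RefSeq promoters of the GRCm38.p6 build were matched for 66 of the 86 members. Each line below gives 30 bases around the annotated start, 15 before the start base and 15 from it on, read 5′ to 3′ on the strand of the gene, with the longest pyrimidine run in capitals. In the first group, the run covers a cytosine at the annotated start, followed by at least 4 pyrimidines.
*Rps6* (chr4:86857353-86857382, minus strand): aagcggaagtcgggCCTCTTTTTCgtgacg
*Rpl38* (chr11:114668565-114668594, plus strand): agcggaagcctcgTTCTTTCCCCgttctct
*Rplp2* (chr7:141447636-141447665, plus strand): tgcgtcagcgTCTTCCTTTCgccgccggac
*Rps27* (chr3:90213634-90213663, minus strand): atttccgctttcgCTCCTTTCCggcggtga
*Rpl15* (chr14:18270972-18271001, minus strand): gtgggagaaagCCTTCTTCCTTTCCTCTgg
*Rpl35* (chr2:39005117-39005146, minus strand): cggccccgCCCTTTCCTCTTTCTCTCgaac
The second group shows some of the members with the smallest p-values or with values that did not overlap between genotypes, whose annotated start is another base. *Rpl36al*, *Rpl9* and *Rpl24* also meet this rule and are not shown. Their longest runs hold 5, 4 and 3 pyrimidines.
*Rps26* (chr10:128626492-128626521, minus strand): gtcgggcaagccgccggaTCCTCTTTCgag
*Rpl22l1* (chr3:28805493-28805522, plus strand): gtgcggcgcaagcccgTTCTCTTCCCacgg
*Rpl6* (chr5:121204486-121204515, plus strand): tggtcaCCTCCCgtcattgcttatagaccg
*Rpl34* (chr3:130730384-130730413, minus strand): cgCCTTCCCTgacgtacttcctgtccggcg
*Rps6* and *Rpl35* of the first group and *Rps26* of the second share the letters CTCTTT in their pyrimidine run. In *Rps26* a run of 9 pyrimidines begins 3 bases after the annotated start, and in *Rpl22l1* a run of 10 begins 1 base after it.

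A cytosine at the start followed by at least 4 pyrimidines was found at 12 of 57 standard members with a promoter (21.1%). Of 69 mitochondrial ribosomal protein genes, which encode the separate ribosome of mitochondria, 0 had it, and of 33 translation factor genes 2 had it (6.06%). Over all 17492 coding promoters the share was 2.17%. A pyrimidine run of at least 8 within 25 bases on either side of the start occurred at 47.4% of the members, 23.2% of the mitochondrial genes and 18.9% of all promoters. CTCTTT on the gene's strand in the same stretch occurred at 14.0% of the members, 1.45% of the mitochondrial genes and 1.61% of all. CCGGAA on either strand of the 300 bases from 250 before to 50 after the start, a sequence that ETS family factors can bind, was held by 50.9% of the members, 56.5% of the mitochondrial genes and 19.1% of all promoters. TATAAA in the 50 bases before the start was held by 0 of the 57 members and by 3.55% of all promoters. CTCTTT and the tract at the start can lie inside the longer pyrimidine run, so these counts overlap. Annotated starts can differ from those used in the embryo by a few bases, and the match at the start depends on a single base.

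The 86 members lay on 19 chromosomes, with *Rpl10*, *Rpl36a*, *Rpl39* and *Rps4x* on the X. Inside their bounds lay 58 annotated snoRNA genes, 39 of them in 20 large subunit members and 19 in 10 small subunit members. The genes counted include 294 pseudogenes whose symbols begin like those of the members and end in -ps, with or without a number. Of the 40-base stretches of the members' transcripts, where 40 bases is the read length, a median of 46.8% over the 86 members occurred in no other annotated gene. The median was 43.6% for the large and 50.5% for the small subunit, against 95.4% for 78 mitochondrial ribosomal protein genes. In 23 of the 86 members, and in 2 of the 78, less than 25% of the stretches were unique. STAR's gene counting leaves out reads that align at several places, so the count of a member covers only part of its mRNA, and a different part for each member.

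Library totals were 19151368, 11717223 and 6357343 counts for WT and 16291582, 11628885 and 14180748 counts for 5C, so that 3 counts, the lowest number taken as a signal, corresponded to 0.157 to 0.472 CPM (counts scaled to a common library total). *Mir483* measured 0.577, 0.429 and 0.319 CPM in WT against 5.15, 4.35 and 2.56 CPM in 5C, higher in every 5C library (log2 fold change 3.05, SE 0.36, adjusted p 0.169 by edgeR's quasi-likelihood test). Defining markers of neural tube and heart were present in every library, with summed levels of 640.0 to 713 and 304 to 480.4 CPM. Markers of yolk sac and liver bud endoderm, 8 of 8 present, summed to 5954, 177 and 424 CPM in WT against to 121, 123 and 1143 CPM in 5C. Somite and limb markers, 5 of 5 present, reached 479 CPM in WT replicate 3 and 67.3 to 78.4 CPM elsewhere. Although the methods give male pools, *Xist* was between 495 and 914 CPM in all 6 libraries, and the Y-linked *Ddx3y* was at 0.944 CPM in WT replicate 2 and at 0 in 5C replicate 2, against 41.6 to 55.9 CPM in the others. Results were therefore also computed without both replicates 2, a choice made after seeing the data.

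All 77 standard members were detected, with at least 3 counts in every library. Together the 86 members took 1.21, 1.36 and 1.20% of the counts in WT and 1.32, 1.24 and 1.34% in 5C, that is 1.26 ± 0.0922% and 1.30 ± 0.0533% (SD, n = 3 per group). The 3 values of each genotype overlapped. WT replicate 2 was the highest library and 5C replicate 3 the next. The difference between the means, 5C above WT, was 0.0382 percentage points with all libraries, 0.0146 without WT replicate 1, 0.0913 without WT replicate 2, 0.00865 without WT replicate 3, 0.0683 without 5C replicate 2 and 0.0178 without 5C replicate 3. Without both replicates 2 it was 0.121, with 1.20% in WT and 1.33% in 5C (n = 2 per group), and the values did not overlap. That pair held the highest WT value and the lowest 5C value and was left out after the data were seen. The separation follows from that choice, and no conclusion is drawn from it. In whole embryos, a different share of cells rich in ribosomal protein mRNA and a different amount of it per cell cannot be told apart.

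Large subunit members took 0.686, 0.766 and 0.678% of the counts in WT and 0.742, 0.696 and 0.761% in 5C. Small subunit members took 0.525, 0.599 and 0.521% in WT and 0.574, 0.540 and 0.576% in 5C. Both subunits were thus highest in the same WT library, and neither separated the genotypes with all 6 libraries. Without both replicates 2 each did, with means of 0.682% in WT and 0.751% in 5C for the large subunit and of 0.523% and 0.575% for the small subunit. The ratio of large to small subunit counts was 1.31, 1.28 and 1.30 in WT and 1.29, 1.29 and 1.32 in 5C, with means of 1.30 ± 0.0140 and 1.30 ± 0.0180 (SD, n = 3 per group). Counts of the mitochondrial ribosomal proteins took 0.353 ± 0.0175% in WT and 0.362 ± 0.00981% in 5C (SD, n = 3 per group), and their ranges also overlapped, but not without both replicates 2, where the means were 0.344% and 0.367%. In each of these shares WT replicate 2 was the only WT library not below every 5C library. 5C replicate 2 was the lowest 5C library in each. The separation without this pair follows from leaving it out, and no conclusion is drawn from it.

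**Figure D1:**
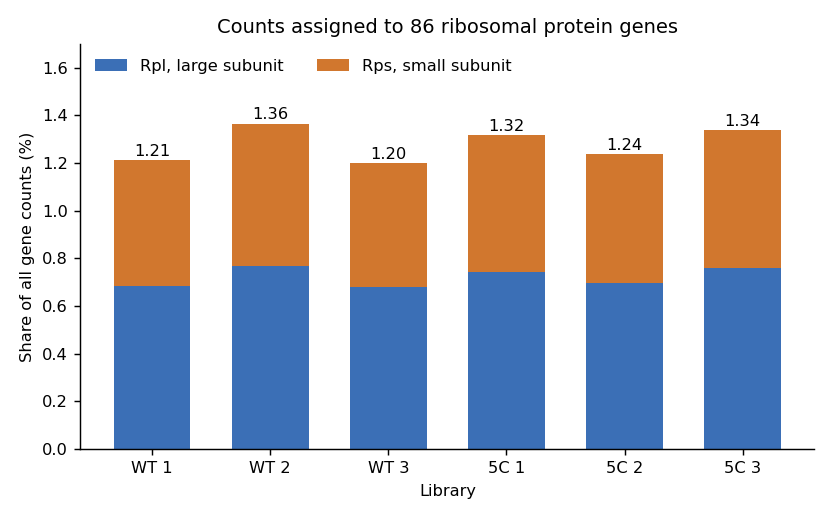
Share of all gene counts (%) assigned to the 86 ribosomal protein genes in each library, with the large subunit (blue) below the small subunit (orange) and the sum printed above each bar. The 3 WT bars reach 1.21, 1.36 and 1.20% and the 3 5C bars 1.32, 1.24 and 1.34%, with overlapping ranges and a similar split between the subunits in every library.

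Proteins of the ribosome are present once per particle, apart from the stalk proteins RPLP1 and RPLP2, which are present as dimers, yet the counted levels of their mRNAs were far from equal. Levels were compared as CPM per kilobase of the median length of each gene's coding transcripts, averaged over the 6 libraries. Over the 77 standard members the level had a median of 71.8, with the lowest value, 0.959, for *Rps16*. Between the 10th and the 90th percentile the span was 49.1-fold. It was 46.8-fold with the length of all exons, 58.4-fold with the shortest coding transcript and 36.9-fold over the 73 members that could be scaled by their unique 40-base stretches. The medians of the subunits lay close together, at 81.0 for the large and 70.3 for the small subunit.

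Among the highest levels in the small subunit were those of *Rps3* (1243) and *Rps24* (548), whose proteins sit at the mRNA entry and in the body of the small subunit. *Rps3* measured 1126, 1290.3 and 1129.8 CPM in WT against 1245, 1127 and 1184 CPM in 5C. *Rps24* measured 260.0, 294 and 289 CPM in WT against 272, 277 and 334 CPM in 5C. Neither gene separated the genotypes. Per kilobase of transcript, *Rps3* stood at 1182 or more in every library, above *Rps24* at 636 or less in all 6. Scaled by unique stretches the order was reversed, with *Rps24* at 1893 and *Rps3* at 1389 over the 6 libraries. Of their stretches, 31.3% were unique in *Rps24* and 93.3% in *Rps3*. The order thus depends on the scale and does not compare the mRNAs.

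In the large subunit the highest levels belonged to *Rpl8* (1188), whose protein lies close to the peptidyl transferase centre, the stalk gene *Rplp1* (914) and *Rpl4* (911), whose protein reaches into the exit tunnel. The last pair could not be ordered on this scale. *Rpl4* lay between 820.3 and 1010.5 and *Rplp1* between 839 and 989 per kilobase over the 6 libraries. Scaled by unique stretches, *Rplp1* stood highest at 3001, with *Rpl8* at 1224 and *Rpl4* at 1209. The 4 members with the most counts made up 37.1 ± 0.244% of all member counts in WT and 37.3 ± 0.486% in 5C (SD, n = 3 per group). Of *Rps3*, *Rpl8* and *Rpl4*, 93.3, 92.6 and 77.3% of the transcript's 40-base stretches were unique.

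At the low end, *Rps16* had only 24, 19 and 6 counts in WT and 15, 14 and 6 in 5C, although its protein is part of every small subunit and 55.8% of its stretches were unique. *Rpl38*, whose protein is known for its part in the translation of Hox mRNAs in the axial skeleton, had a level of 2.81 per kilobase. *Rpl24* followed with 3.50, and 47.0% of its exon bases also lie under exons of the gene *Gm28037*, so that reads from them fall under 2 genes. *Rps29* had 5.46 and *Rpl28* 5.95. *Rps6*, which encodes the substrate of the S6 kinases, had a level of 9.70 with 15.3% unique stretches. These are levels of the counts as deposited, not of the mRNAs.

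Levels were lower where less of the transcript was unique. The 22 standard members with under 25% unique stretches had a median level of 39.2 per kilobase, and the 55 others a median of 110.0. Over the 77 members, Spearman's rho between level and unique share was 0.362. The genes share the same 6 libraries and are not independent. Members with at least 25% unique stretches included *Rps16* at 0.959 and *Rps3* at 1243, and those under 25% ran from 3.50 to 266. The span between the 10th and the 90th percentile was 49.1-fold per transcript length over 77 members. It was 36.9-fold by unique stretches over 73. The part of unique share in the span was not tested.

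**Figure D2:**
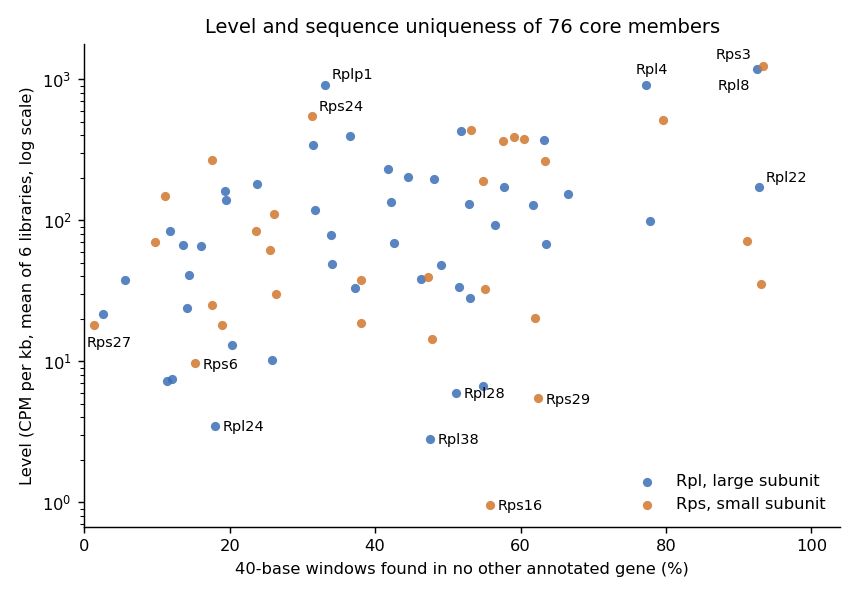
Level of 76 standard members (CPM per kilobase, mean of 6 libraries, log scale) against the share of its 40-base transcript stretches found in no other annotated gene (%), with large subunit genes in blue and small subunit genes in orange. *Rps3* and *Rpl8* stand at the upper right, *Rps16* and *Rpl38* lie lowest at middling uniqueness, and the points scatter widely around a weak upward trend.

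Between genotypes, the mRNA levels of the ribosomal proteins differed little. Of the 86 members, 82 had enough counts to be tested, 49 of the large and 33 of the small subunit. The other 4, *Rpl3l*, *Rpl10l*, *Rpl39l* and *Rps27rt*, had 3, 2, 7 and 2 counts over all 6 libraries. Of the 82, 0 passed an adjusted p under 0.05 in edgeR's quasi-likelihood test, and the lowest adjusted p was 0.781. The background was the same, with 0 DEGs among the 16784 genes tested, or 0.0%. At an unadjusted p under 0.05 there were 4 members, 1 higher and 3 lower in 5C, against 6.02% of all genes, with 2.55% higher and 3.47% lower. In the same test, the count of members was 9 without 5C replicate 1, 2 without 5C replicate 2, 1 without 5C replicate 3 and 2 without both replicates 2, and the share of all genes was 8.66%, 2.62%, 4.49% and 5.11%. DESeq2 also called 0 members, with 4 at an unadjusted p under 0.05, against 4.28% of all genes. With offsets fitted on transcript GC content, edgeR's test called 0 members and 7 had an unadjusted p under 0.05, against 5.20% of all genes.

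The median log2 fold change was 0.0029 over 49 large subunit members and 0.0062 over 33 small subunit members, beside -0.0024 over all genes tested. Without both replicates 2 these medians were 0.082, 0.11 and 0.0020. Of the 82 members, 47 had a higher fitted value in 5C and 35 a lower one, and 49 lay within 0.1 of 0 on the log2 scale. The majority turned with single libraries, from 58 higher and 24 lower without WT replicate 2 to 35 higher and 47 lower without WT replicate 3, and it was 36 and 46 without WT replicate 1, 37 and 45 without 5C replicate 3 and 62 and 20 without both replicates 2. With a median standard error of 0.0968, the 95% interval lay within a 1.5-fold difference either way for 74 of the 82 members, 44 of 49 in the large and 30 of 33 in the small subunit. For most of these genes, a 1.5-fold difference was thus outside the interval of this experiment, while differences of a few percent were not resolved.

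**Figure D3:**
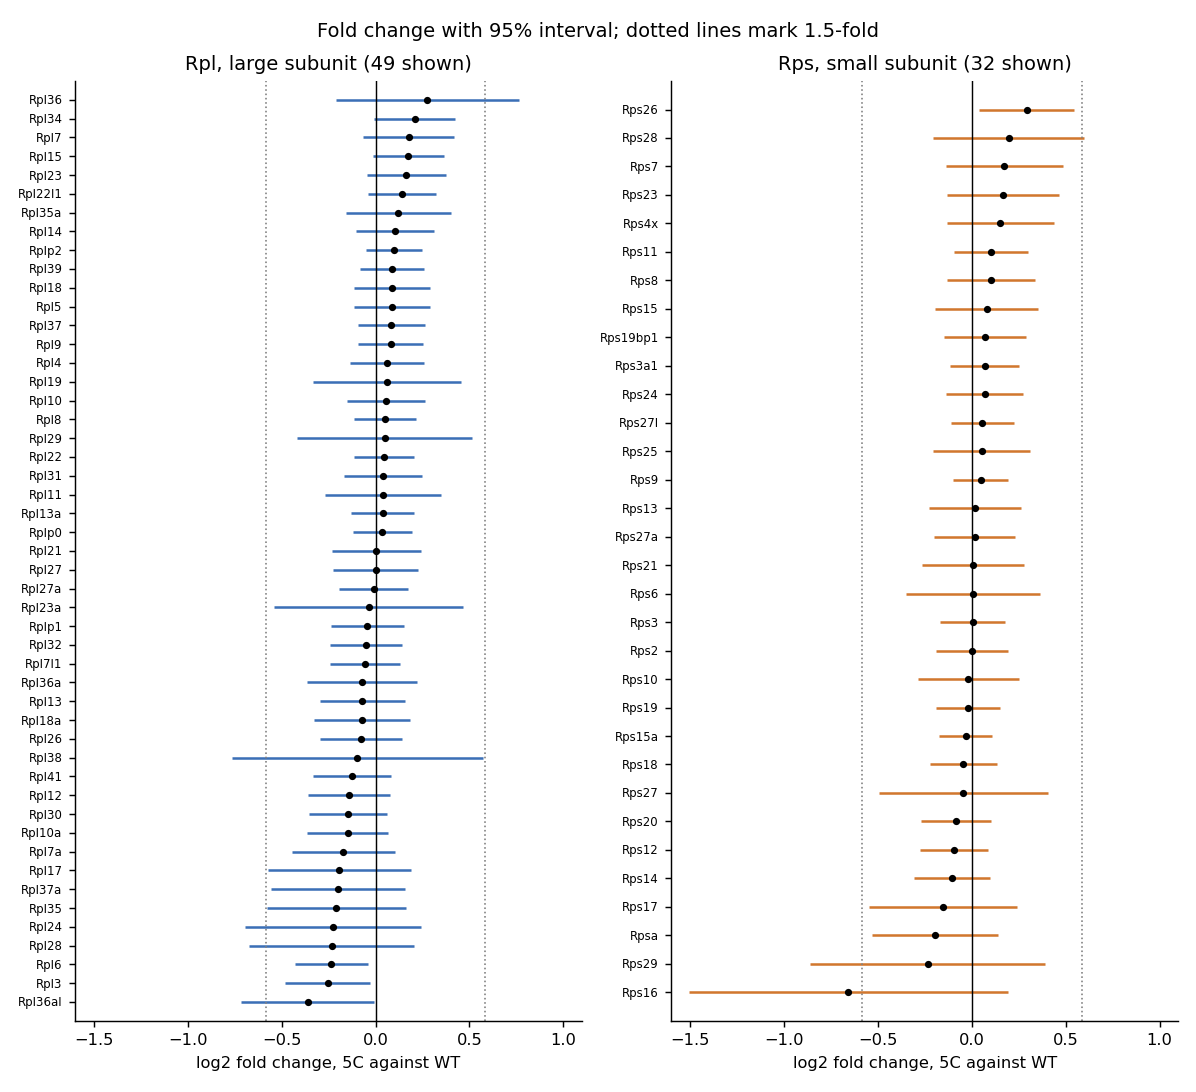
Log2 fold change of 5C against WT for the 49 tested large subunit members (left) and 32 of the 33 tested small subunit members (right), sorted by value, with black points for the estimates and coloured bars for 95% intervals. Estimates run from -0.36 (*Rpl36al*) to 0.28 (*Rpl36*) on the left and from -0.66 (*Rps16*) to 0.29 (*Rps26*) on the right, and the dotted lines at a 1.5-fold difference are crossed by the bars of 8 members, among them *Rps16*, *Rps29*, *Rpl38* and *Rpl24*.

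Among large subunit members, the smallest p-value was that of *Rpl6* (ENSMUSG00000029614; GRCm38 chromosome 5, 121204481 to 121209241), whose protein lies on the solvent side of the subunit. It measured 60.3, 69.7 and 72.0 CPM in WT against 59.0, 53.3 and 58.7 CPM in 5C. Each 5C library was below each WT library, though the closest pair differed by little. The log2 fold change was -0.24 (SE 0.09, p 0.0231, adjusted p 0.781 by edgeR's quasi-likelihood test), and it was -0.16 without both replicates 2.

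*Rpl3* (ENSMUSG00000060036; chromosome 15, 80077791 to 80091868) encodes a core protein next to the peptidyl transferase centre. Its levels were 92.7, 109 and 90.9 CPM in WT against 92.2, 77.2 and 75.7 CPM in 5C, so that 5C replicate 1 fell within the WT range. The log2 fold change of -0.25 (SE 0.10, adjusted p 0.781 by edgeR's quasi-likelihood test) became -0.17 without WT replicate 2 and -0.13 without both replicates 2. Of its 40-base stretches 13.6% were unique.

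In CPM, *Rpl34*, which encodes a protein of the large subunit's outer surface, measured 103, 100.97 and 96.7 in WT and 107, 106 and 134 in 5C (log2 fold change 0.21, SE 0.10, adjusted p 0.781 by edgeR's quasi-likelihood test). *Rpl9*, one of the proteins at the base of the stalk, measured 32.3, 30.9 and 32.2 CPM in WT against 33.9, 32.9 and 34.1 CPM in 5C. For both genes each 5C library was above each WT library, by a small margin in 2 of the 3 *Rpl34* libraries. *Rpl24*, with 17 to 46 counts per library, measured 2.41, 2.58 and 2.71 CPM in WT against 2.36, 2.31 and 1.85 CPM in 5C, without overlap in the other direction. With *Rpl22l1* higher and *Rpl6* and *Rpl36al* lower, values did not overlap for 3 members higher and 3 members lower in 5C, all of the large subunit. Over all genes tested, 11.4% did not overlap, 6.26% with 5C higher and 5.1% with 5C lower. *Rpl34*, *Rpl9* and the non-overlap of these genes were singled out after their values were seen.

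The stalk binds translation factors and stimulates their GTPase activity. Its genes were among the best measured members. *Rplp0*, the scaffold of the stalk, measured 555, 613 and 555 CPM in WT against 591, 567 and 610.0 CPM in 5C. *Rplp1* measured 419, 493 and 477 CPM in WT against 437, 419 and 492 CPM in 5C, and *Rplp2* 148, 155 and 139 against 165, 152 and 156 CPM. All 3 genes overlapped between genotypes, and their 95% intervals were -0.12 to 0.19, -0.24 to 0.15 and -0.05 to 0.25 on the log2 scale. With offsets for GC content, *Rplp2* stood at 0.14 (p 0.0401 by edgeR's quasi-likelihood test). With a block on replicate number added, it stood at 0.15 (p 0.0851 by the same test).

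*Rpl5* and *Rpl11* encode the proteins that carry the 5S rRNA into the large subunit and that, when free, bind MDM2 and stabilise p53. *Rpl5* measured 68.3, 77.4 and 79.6 CPM in WT against 71.4, 82.7 and 84.5 CPM in 5C. For *Rpl11* the levels were 30.4, 28.9 and 21.1 CPM in WT against 25.3, 30.1 and 28.3 CPM in 5C. The groups overlapped for both, with intervals of -0.12 to 0.29 and -0.27 to 0.35.

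*Rpl10*, an X-linked gene whose protein joins the large subunit in the last steps of its assembly, measured 32.97 ± 2.92 CPM in WT against 34.2 ± 1.251 CPM in 5C (SD, n = 3 per group). Levels of *Rpl38* rested on 6 to 21 counts per library and measured 1.07 ± 0.124 and 0.998 ± 0.250 CPM (SD, n = 3 per group). The interval of *Rpl38*, -0.77 to 0.57, reached beyond 1.5-fold below, so at this depth a difference of that size would not have been resolved. *Rpl36*, the large subunit member with the highest fitted fold change, had 18 to 46 counts per library and an interval of -0.21 to 0.76.

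*Rps26* (ENSMUSG00000025362; chromosome 10, 128624534 to 128626747) had the smallest p-value of the small subunit. Its protein lies at the mRNA exit channel and contacts mRNA upstream of the start codon. In WT it measured 217, 243 and 212 CPM, and in 5C 242, 253 and 326 CPM. WT replicate 2 lay just above 5C replicate 1, and 5C replicate 3 stood well above the rest. The log2 fold change was 0.29 (SE 0.11, p 0.0273, adjusted p 0.781 by edgeR's quasi-likelihood test) and was 0.15 without 5C replicate 3. Testing all 33139 genes with a count, without a filter, gave *Rps26* an adjusted p of 0.0219 by edgeR's quasi-likelihood test. In that fit 416 genes had an adjusted p under 0.05, and 319 of them also passed 1.5-fold. *Rps26*, with a log2 fold change of 0.31, did not pass 1.5-fold and was not among these 319 DEGs. Under every other alternative the lowest adjusted p of any member lay between 0.448 and 0.9999.

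**Figure D4:**
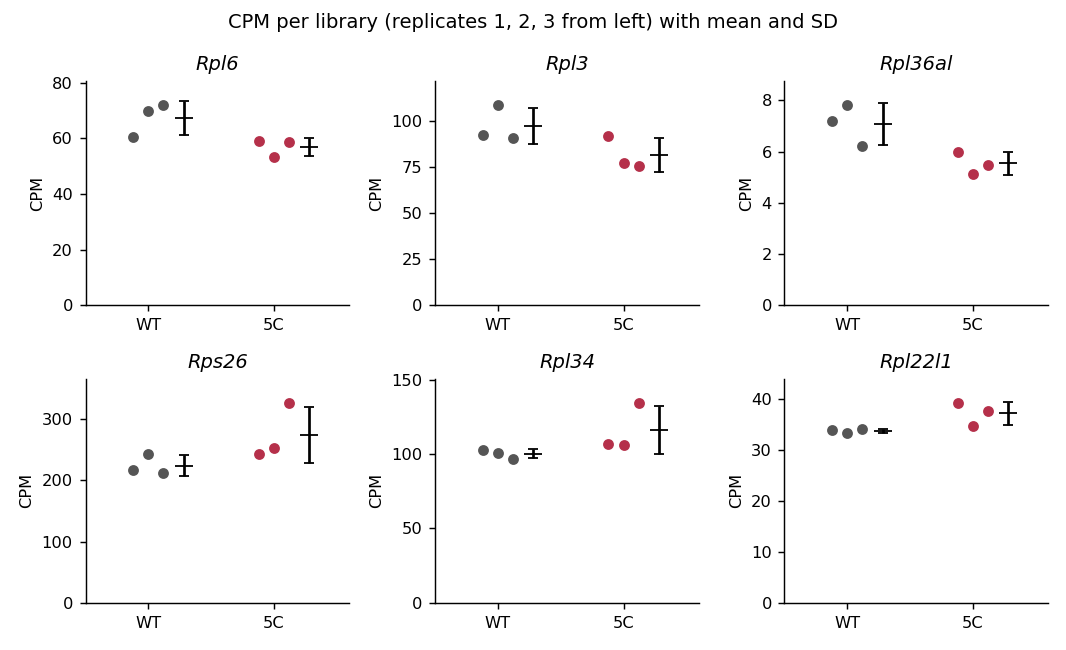
CPM of 6 members in each library (WT grey, 5C red, replicates 1 to 3 from the left), with the mean and SD of the 3 libraries beside the points and every axis starting at 0. *Rpl6*, *Rpl36al* and *Rpl22l1* do not overlap between genotypes, *Rpl3* and *Rps26* do, and the 5C value of 326 CPM for *Rps26* and of 134 CPM for *Rpl34* both come from 5C replicate 3.

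*Rps6* measured 8.29, 10.05 and 7.02 CPM in WT against 7.999, 8.96 and 8.76 CPM in 5C, with a log2 fold change of 0.01 and an interval of -0.35 to 0.36. *Rps19*, the gene most often mutated in Diamond-Blackfan anaemia, an inherited failure of red cell formation, measured 139, 163 and 143 CPM in WT against 149, 139 and 149 CPM in 5C, with an interval of -0.19 to 0.15. Both genes overlapped between genotypes. Markers of primitive red cells, 5 of 5 present, summed to between 8224 and 16164 CPM over the libraries, and their part in these levels was not tested.

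*Rps27a*, which encodes ubiquitin fused to a small subunit protein, measured 21.2 ± 1.33 CPM in WT against 21.5 ± 0.680 CPM in 5C (SD, n = 3 per group). *Rpsa*, which encodes the 40S protein also described as the laminin receptor, measured 57.0, 71.3 and 55.8 CPM in WT against 64.8, 53.4 and 42.7 CPM in 5C. The lowest of these was 5C replicate 3 and the highest WT replicate 2. The X-linked *Rps4x* measured 69.1, 86.03 and 79.4 CPM in WT against 76.2, 79.7 and 104.3 CPM in 5C, with 5C replicate 3 the highest. Without that library its log2 fold change of 0.15 became -0.0028.

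*Rps16* had the lowest fitted fold change of all members, -0.66, with an interval of -1.51 to 0.19 that reflects its 6 to 24 counts per library. It measured 1.26, 1.63 and 0.957 CPM in WT against 0.909, 1.20 and 0.427 CPM in 5C. The groups overlapped, and without 5C replicate 3 the value was -0.34. *Rps29*, with 17 to 35 counts per library, measured 2.34 ± 0.531 CPM in WT against 1.92 ± 0.498 CPM in 5C (SD, n = 3 per group).

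The paralogs replace or accompany a standard member in certain tissues. *Rpl22l1*, the paralog of *Rpl22*, measured 33.9, 33.3 and 34.0 CPM in WT against 39.2, 34.7 and 37.6 CPM in 5C, without overlap (log2 fold change 0.14, SE 0.08, adjusted p 0.781 by edgeR's quasi-likelihood test). *Rpl22* itself measured 346 ± 22.5 CPM in WT against 357 ± 18.3 CPM in 5C (SD, n = 3 per group). Per length, *Rpl22l1* stood at 0.372 ± 0.0273 of the *Rpl22* level in WT and 0.396 ± 0.0286 in 5C (SD, n = 3 per group). The ratio thus overlapped between genotypes where *Rpl22l1* alone did not. Of their stretches, 31.6% were unique in *Rpl22l1* and 92.7% in *Rpl22*. Scaled by unique stretches, *Rpl22l1* stood at 219 and *Rpl22* at 189 over the 6 libraries, so the size of the ratio does not compare the mRNAs.

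*Rpl36al* (ENSMUSG00000049751; chromosome 12, 69182731 to 69184083), a paralog of the X-linked *Rpl36a*, had the lowest fitted value of the large subunit. It measured 7.19, 7.81 and 6.22 CPM in WT against 5.999, 5.12 and 5.48 CPM in 5C, from 39 to 137 counts per library. Each 5C library was below each WT library, with a log2 fold change of -0.36 (SE 0.16, p 0.0470, adjusted p 0.781 by edgeR's quasi-likelihood test) that became -0.24 without both replicates 2. The level per length relative to *Rpl36a* was 0.416, 0.372 and 0.366 in WT and 0.355, 0.279 and 0.313 in 5C, also without overlap. How often ratios of other gene pairs do not overlap was not computed, so this is a description only. Its unadjusted p was 0.127 in DESeq2 and 0.0865 with replicate number as a block. *Rpl36a* itself had 14.2% unique stretches, against 56.7% in the paralog. Exons of the gene *Gm49383* cover 24.5% of the exon bases of *Rpl36al*, and reads under both genes are not counted.

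*Rpl7l1*, a relative of *Rpl7* with a role in ribosome assembly, measured 177 ± 17.4 CPM in WT against 170.4 ± 10.1 CPM in 5C (SD, n = 3 per group). Relative to *Rpl7* its level per length was 0.427, 0.422 and 0.396 in WT and 0.365, 0.383 and 0.321 in 5C. These ratios did not overlap, while the CPM values of both genes did. Here too no background share for ratios was computed, and no difference between genotypes is read from it. Unique stretches made up 85.2% of *Rpl7l1* and 41.8% of *Rpl7*, so the size of these ratios does not compare the mRNAs. *Rps27l*, a p53 target and paralog of *Rps27*, measured 63.6 ± 3.55 CPM in WT against 66.2 ± 3.62 CPM in 5C (SD, n = 3 per group). It stood 6.73-fold above *Rps27* per length in WT and 6.99-fold in 5C, but only 1.31% of the stretches of *Rps27* were unique, against 82.8% in *Rps27l*, so the ratio does not compare the mRNAs. The paralogs *Rpl3l*, known from striated muscle, and *Rpl10l* and *Rpl39l*, known from testis, stayed at or under 3 counts in every library, as did *Rps27rt*, a retrotransposed copy of *Rps27*. *Rps19bp1* measured 26.7 ± 2.14 CPM in WT against 28.1 ± 1.61 CPM in 5C (SD, n = 3 per group).

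Genes that work with the members were taken from lists chosen with earlier results of these data known. None of their members passed an adjusted p under 0.05 in edgeR's quasi-likelihood test, beside 0.0% of all genes. At an unadjusted p under 0.05 in that test, 2.55% of all genes were higher and 3.47% lower in 5C. Ribosomal proteins under other names overlapped between genotypes. *Fau*, which encodes a ubiquitin-like protein fused to a small subunit protein, lay between 2.22 and 4.48 CPM, and *Rack1*, the scaffold protein at the head of the small subunit, between 1539 and 1809 CPM. Of 77 mitochondrial ribosomal protein genes tested, 2 were higher and 0 lower at an unadjusted p under 0.05, and the median log2 fold change was 0.010. The smallest p among them was that of *Mrpl32*, with 30.3, 35.4 and 31.0 CPM in WT against 33.3, 43.5 and 44.0 CPM in 5C (log2 fold change 0.32, adjusted p 0.781).

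Of 71 ribosome biogenesis genes, which process rRNA and assemble the subunits, 0 were higher and 5 lower at an unadjusted p under 0.05. Over all genes, 2.55% were higher and 3.47% lower, which is the background for the next lists too. The biogenesis genes had a median log2 fold change of -0.0033. *Rrp1*, a nucleolar rRNA processing factor, had the smallest p, with 188, 195 and 191 CPM in WT against 184, 161 and 154 CPM in 5C (log2 fold change -0.20, adjusted p 0.781 by edgeR's quasi-likelihood test). Of 41 translation factor genes, several of which also have TOP mRNAs, 1 was higher and 1 lower, with a median of -0.0044, and *Eif3f*, a subunit of the initiation factor eIF3, had the smallest p (log2 fold change 0.17). Of 22 regulators of TOP mRNAs and growth, such as *Mtor*, *Larp1* and *Myc*, 0 were higher and 2 lower, with a median of 0.018. *Rptor*, which encodes the subunit that brings substrates to mTOR complex 1, measured 76.8, 70.1 and 73.5 CPM in WT against 69.0, 63.5 and 59.5 CPM in 5C, without overlap (log2 fold change -0.20, adjusted p 0.781 by edgeR's quasi-likelihood test).

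With all 6 libraries, members differed more between single libraries than between the genotypes. WT replicate 2 held the highest value of 36 of the 82 members (43.9%), against 17.7% of all genes tested, and 5C replicate 3 that of 26 (31.7%), against 19.5%. The lowest value of 24 members (29.3%, against 18.6% of all genes) was in WT replicate 1, that of 23 (28.05%, against 19.2%) in WT replicate 3, and that of 17 (20.7%, against 20.9%) in 5C replicate 3. Measured as the median deviation from each gene's mean, on the log2 scale, the large subunit stood at -0.058, 0.105 and -0.066 in WT and at 0.023, -0.059 and 0.060 in 5C. The small subunit stood at -0.074, 0.115 and -0.063 in WT and at -0.00011, -0.025 and 0.021 in 5C. The subunits thus moved alike from library to library, by more than the difference between the genotype medians.

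5C replicate 3 did not move its members one way. It lay more than 10% above every other library in 14 members (17.1%, against 5.73% of all genes), among them *Rpl7*, *Rpl15*, *Rpl23*, *Rps4x*, *Rps24* and *Rps26*, and more than 10% below every other library in 8 (9.76%, against 6.88%), among them *Rpl37a*, *Rpl38*, *Rps16* and *Rpsa*. WT replicate 2 stood more than 10% above all others in 13 members (15.9%, against 4.68%) and below them in 0. Endoderm markers were at 1143 CPM in 5C replicate 3 and at 177 CPM in WT replicate 2, and the share of mitochondrial genome counts was 0.717% and 0.560% in these libraries, within the 0.560 to 1.06% of all 6. The part of these in the members' levels was not tested.

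**Figure D5:**
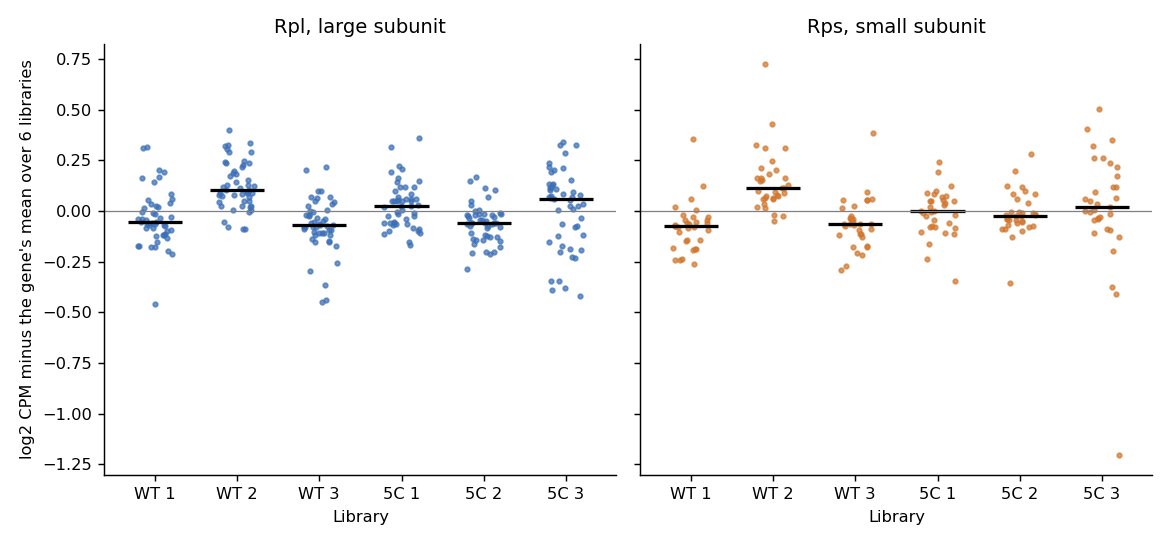
Deviation of log2 CPM from the gene's own mean over 6 libraries, with a point for each tested member of the large (left) and small (right) subunit and a black bar at the median of each library. The bars of WT replicate 2 stand highest, at 0.105 and 0.115, and the points of 5C replicate 3 lie both well above and well below 0.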

How the data were processed

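Poly(A)-selected, strand-specific mRNA libraries of whole E10.5 embryos were sequenced by the authors as short single-end reads and aligned to GRCm38 by STAR with gene models of Ensembl. The authors deposited raw whole-number read counts per gene, without normalization. Which strand column was counted is not given in the sources used here. STAR's gene counting keeps neither reads that align at several places nor reads under exons of more than 1 gene. Genotype and replicate number came from the sample titles.

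Symbols, lengths and positions came from GENCODE M21 on GRCm38, in which 55141 of the 55401 identifiers were found. Counts were fitted with edgeR 4.0.16 in R 4.3.3 over the whole table: filterByExpr, TMM scaling (a trimmed mean of M values), and the legacy form of the quasi-likelihood F-test, two-sided, with Benjamini-Hochberg adjustment over the 16784 genes tested. DEGs were genes whose adjusted p lay under 0.05 with more than a 1.5-fold change. CPM used TMM-scaled totals, standard errors were the log2 fold change over the square root of F, and floors of 3 counts cover counting error only. The biological coefficient of variation was 13.6%. Every pair of libraries differed by more than sampling noise, with a chi-square of at least 5.76 per gene, so all 6 counted as samples. The fit was tested on simulated data.

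Members, lists, motifs and tests were chosen with earlier results of these data known. Named genes were fixed members of known role, all paralogs, the extremes by p, fold change and level, and the smallest p of each list, beside those marked as singled out later. The alternatives tried were relative log expression, library size alone, TMM without the members, no count filter, at least 10 counts in every sample, DESeq2 1.42.0, robust moderation, a block on replicate number, offsets fitted on transcript GC content with and without the block, other gene lengths, and each library left out. Protein sequences were not used here, and 2 genes, 1 of them a member, are not reported here by name.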

Additional observations from a re-analysis of the deposited data

How the results depend on the processing

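With 3 libraries per genotype and few counts in some members, differences of a few percent were beyond reach, and each fit that leaves out a library rests on a lone pair in 1 genotype. DEGs numbered 11 in DESeq2, 319 without a count filter and 3 under robust moderation, and 0 to 1 when libraries were left out. At an adjusted p under 0.05 alone, members and list members called were 0 under each of these, except without a count filter. There each was 1 (*Rps26*, 0.31, and *Eif4ebp2* among the growth regulators), beside 416 genes at that threshold. The labels do not say what a replicate number shares. Deviations of same-numbered libraries from their group means correlated over all genes at -0.177, 0.206 and -0.146, so the pairing was not used. Over the 82 members they correlated at 0.401, 0.255 and 0.402, each library most with the one of its own number in the other genotype, a hint from the data and not the design. With the replicate block, 0 genes were called and 3 members had an unadjusted p under 0.05 (4.66% of all genes), without *Rpl36al*. It turned *Fau* to -0.036 and changed no call. Log2 fold change and transcript GC content had a Spearman's rho of -0.313 over 16770 genes and of -0.147 over the 82 tested members. The growth regulator median became -0.025 with GC offsets and -0.024 with GC offsets and the replicate block. When libraries were left out, medians ranged from -0.039 to 0.085 (large subunit), -0.028 to 0.11 (small subunit), -0.015 to 0.078 (mitochondrial), -0.045 to 0.050 (biogenesis), -0.045 to 0.068 (translation factors) and -0.0046 to 0.028 (growth regulators), and the difference in the members' share of counts from 0.00865 to 0.121 percentage points. The highest values of the small subunit, mitochondrial and translation factor medians and of the share came without both replicates 2.

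No call was involved where signs turned, and the cause was not tested. Signs turned for *Rps6* (-0.0017) with at least 10 counts, *Fau* (-0.0024), *Rps3* (-0.00065) and *Rps6* (-0.0023) in DESeq2, *Rps3* (-0.00061) with relative log expression, and *Rps3* (-0.00077) with scaling without the members. GC offsets gave *Rplp1* 0.0063, *Rps27a* -0.043, *Rps27l* -0.012 and *Rps3* -0.0013, and with the replicate block *Fau* -0.0041, *Rplp1* 0.0055, *Rps24* -0.0036, *Rps27a* -0.039 and *Rps27l* -0.011. Leaving out libraries turned the sign of further members within these ranges: *Fau* -0.27 to 0.41, *Rack1* -0.062 to 0.087, *Rpl10* -0.019 to 0.12, *Rpl11* -0.098 to 0.14, *Rpl38* -0.33 to 0.056, *Rpl7l1* -0.11 to 0.047, *Rplp1* -0.11 to 0.054, *Rps19* -0.068 to 0.083, *Rps24* -0.032 to 0.14, *Rps27a* -0.015 to 0.070, *Rps3* -0.034 to 0.11, *Rps4x* -0.0028 to 0.29, and *Rps6* -0.099 to 0.14.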

Other observations

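Counts of the 294 pseudogenes with a symbol like a member's and ending in -ps were summed. They made up 0.00788 ± 0.000383% of a library in WT and 0.0100 ± 0.00214% in 5C (SD, n = 3 each). The ranges did not overlap, with the highest value, 0.0125%, in 5C replicate 3. These counts are few beside those of the members, and which transcripts they came from was not tested. Pseudogenes under other names were left out. For *Rpl7a*, 13 pseudogenes carry its name, while 137 pseudogenes share 40-base stretches with its transcript.

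Spread within a genotype was described at matched levels, between 50 and 400 CPM, with no test. The median SD of log2 CPM was 0.130 over 27 large subunit and 0.129 over 16 small subunit members, against 0.0901 over 33 mitochondrial ribosomal protein genes and 0.0931 over 4824 genes in all. Among members in this range it was 0.130 for the 10 with under 25% unique stretches and 0.127 for the 33 others.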
